A study of Glycine max with 2 samples.

Results

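The comparison described here is that of early and late senescence soybean (Glycine max) in leaves taken 50 days after sowing. Its members are the 2161 transcripts, of 1868 genes, with a deposited value of 100 or more in at least 1 of the 2 libraries compared. They were taken from 2413 different transcripts listed at that age and 4096 listed at either age of the series, which also holds a comparison at 95 days. All plants were grown in a greenhouse under normal condition, leaf tissue was sampled from an early and a late senescence type, and no other treatment is named. The labels give neither the cultivars nor whether several plants were pooled. The authors' table names its libraries A and B without saying which is the early type, so they are called library B and library A throughout. There was 1 library per type, which leaves every difference without a replicate check and makes the authors' p-values a comparison of those libraries, not of the types.

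Leaf senescence is the ordered last phase of a leaf, in which chloroplasts are dismantled, chlorophyll and protein are broken down, and nitrogen, sugars and minerals are sent to growing organs and seeds. It is timed by age, day length and hormones, with ethylene, jasmonate, abscisic acid and salicylic acid promoting it in Arabidopsis and cytokinin delaying it. The circadian clock, a loop of transcription factors that repress each other in sequence over the day, is linked to leaf ageing and to flowering time in several plants.

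Every value below is given in normalised reads, which is the deposited value minus 1, so that 0 means no read. Values of different transcripts are not scaled by length, so levels are compared between the libraries for 1 transcript and not between genes. The table lists only transcripts with an authors' p-value under 0.05, and the smallest ratio among the 2161 was 11.98-fold. Transcripts that did not differ, library totals and depth are therefore not known. Folds carry a 95% interval (Clopper-Pearson, on the reads). With no read in the lower library, a bound against 3 reads there replaces it. Intervals and bounds cover counting error only. A transcript is described as called where the adjusted p in the authors' deposited table was below 0.05 and its log2 ratio 1 or more in size.

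Of the 2161 transcripts, 847 were higher in B (39.2%) and 1314 were lower in B (60.8%). In 598 (27.7%) library A had no read, and in 857 (39.7%) library B had none, 67.3% together. The called transcripts were 35 higher in B (1.62%) and 77 lower in B (3.56%), 5.18% together. Counts of called members of a list below are to be read beside these shares. Among the 38 transcripts with 10000 or more in the higher library, 14 were higher in B and 24 lower in B. At the lower limit of level, Glyma.12G198400.1, a CONSTANS-LIKE 3-like transcript just inside it, had 0 normalised reads in B and 99.5 in A. Just outside it, Glyma.20G176100.1, an isoliquiritigenin 2'-O-methyltransferase-like transcript, had 98.6 in B against 0 in A.

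**Figure D1:**
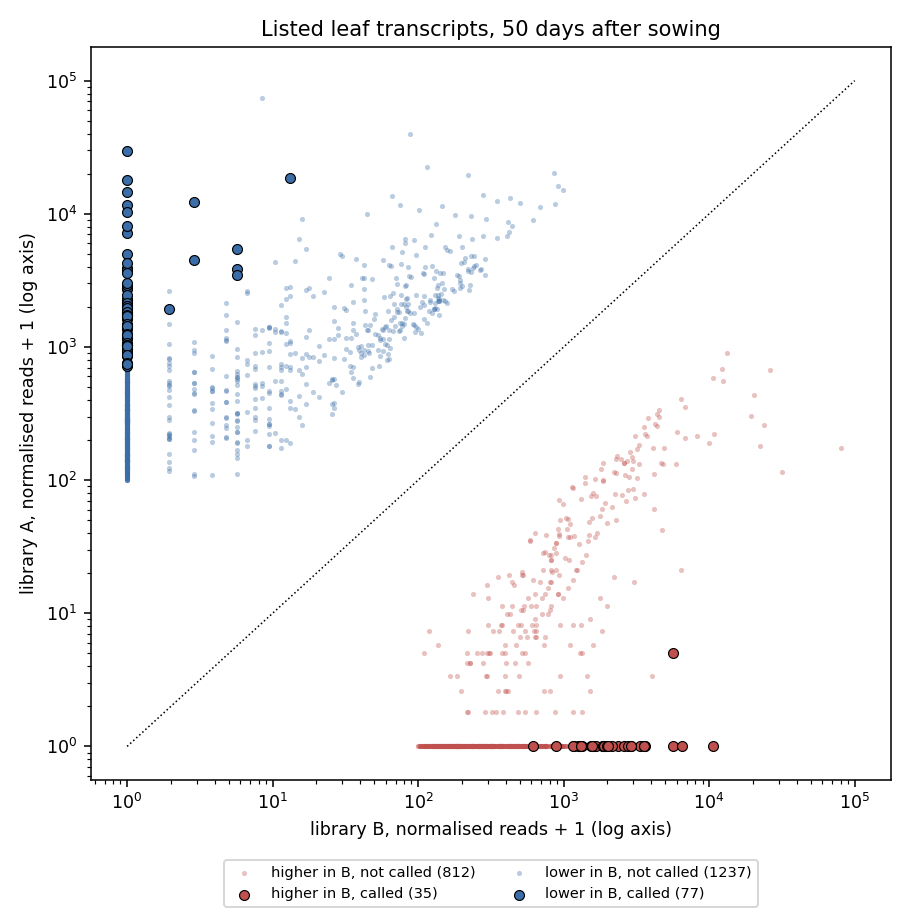
Normalised reads plus 1 of the 2161 kept transcripts, library B on the horizontal and library A on the vertical axis (both log axes), 1 point per transcript, with called transcripts outlined. The points form 2 clouds away from the dotted line of equal values, and the lines of points at 1 are the 857 transcripts with no read in B and the 598 with none in A.

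Among the transcripts with the most reads were a protease, BURP proteins and a cell wall protein. Glyma.14G064600.2, a cucumisin-like subtilisin, a serine protease first known from melon fruit, had 80384 normalised reads in B and 173 in A, 464-fold higher in B (406 to 532). Another isoform of that gene, Glyma.14G064600.1, had 31576 in B against 115 in A. At the opposite end stood Glyma.04G180400.1, a BURP domain protein related to the drought- and abscisic acid-induced RD22 of Arabidopsis, with 7.51 in B against 73517 in A, 9787-fold lower in B (4967 to 22669). Its relatives did not share a side. Glyma.14G140900.1, BURP domain protein 2, had 12465 in B against 559 in A, while Glyma.06G081100.1, GmRD22, had 19.7 in B against 782 in A. A proline-rich cell wall protein, Glyma.11G155000.1, had 87.3 in B against 39867 in A, 457-fold lower in B (373 to 566). Glyma.17G092400.2, matched to spermidine synthase, which makes a polyamine, had 22463 in B against 181 in A, 124-fold higher in B (109 to 142).

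The 32 functional lists, defined by words in the symbol, the Arabidopsis match and the description, held 1158 of the 2161 transcripts, 46 of them in more than 1 list. A further 549 were described only as uncharacterized or hypothetical, some of them in a list by their symbol, and these had 214 higher and 335 lower in B. The lists ran from 0 of 6 higher in B for iron and metal homeostasis to 30 of 44 for cell division. Because the table holds few small differences, a list's median log2 ratio mainly repeats which side held more of it. Over all kept transcripts that median was -5.31, or -5.22 with transcripts without a read set to their bound.

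**Figure D2:**
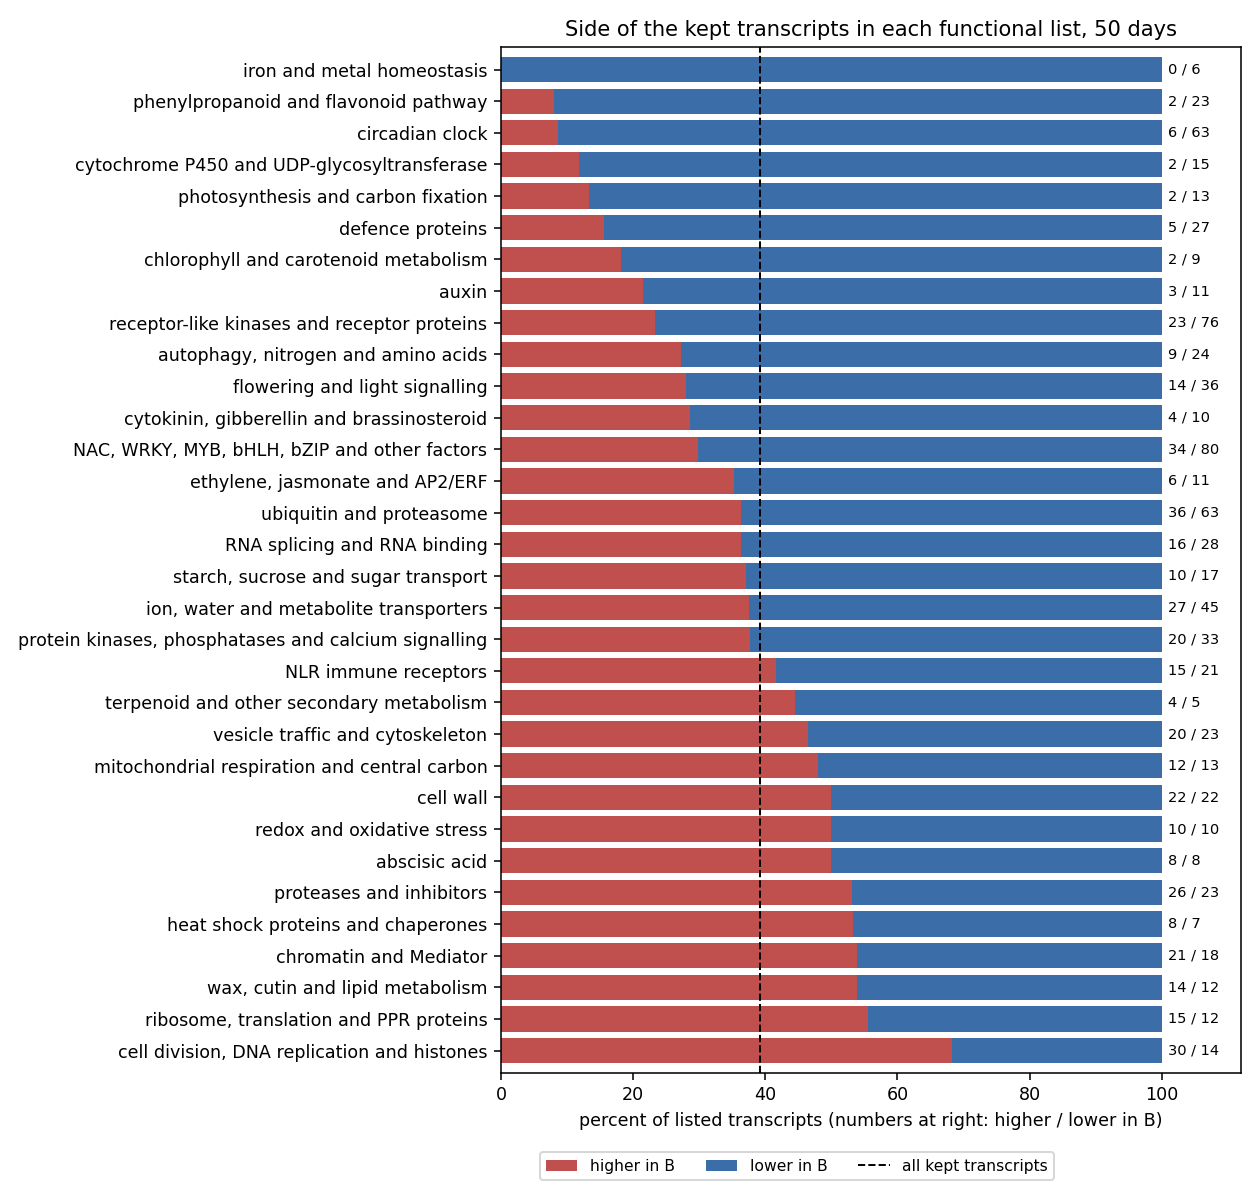
Percent of the kept transcripts of each of 32 functional lists that were higher in B (left part of each bar) and lower in B (right part), with the numbers at the right and the share over all 2161 transcripts, 39.2%, as a dashed line. Cell division has the highest share higher in B (30 and 14) and iron and metal homeostasis the lowest (0 and 6).

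Protein breakdown is central to a senescing leaf. Of 49 transcripts of proteases and their inhibitors, 26 were higher and 23 lower in B, with a median log2 ratio of 4.15. All 6 subtilisin-like transcripts, of 5 genes, were higher in B. Besides cucumisin, Glyma.14G048000.1 had 12159 in B against 682 in A, 17.8-fold higher in B (16.6 to 19.1), and Glyma.19G168700.1, SBT1.2, had 1508 in B against 8.03 in A. The 3 papain-like cysteine proteases, the class best known from senescing leaves, were on both sides, 1 higher and 2 lower in B. Glyma.14G085600.1, matched to RD21B of Arabidopsis, had 23619 in B against 259 in A, 91.1-fold higher in B (81.6 to 102). By contrast Glyma.07G205400.1, ervatamin-B-like, had 12.2 in B against 18481 in A, 1514-fold lower in B (885 to 2844), and was called. Glyma.09G069800.1, an aleurain-like vacuolar protease, had 266 in B against 3806 in A. Aspartic proteases were also divided, 3 higher and 3 lower in B. Glyma.04G091800.1, related to AED3, a secreted protease of Arabidopsis, had 20378 in B against 431 in A, and Glyma.10G143500.1 had 17.8 in B against 2413 in A. Among other peptidases, Glyma.16G082700.2, serine carboxypeptidase-like 20, had 2342.8 in B against 0 in A, and Glyma.04G053300.1, aminopeptidase M1, had 1275 in B against 0 in A. Glyma.10G088000.1, glutamate carboxypeptidase 2, had 4.69 in B against 5458 in A, and Glyma.05G165100.5, a chloroplast processing peptidase, had 0 in B against 2272 in A. These 4 were called, on both sides. Among the inhibitors, Glyma.09G155500.1, of the Kunitz type, had 1535 in B against 75.4 in A, while the Bowman-Birk inhibitor Glyma.18G231700.1 had 41.3 in B against 2245 in A.

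Wax and surface lipid transcripts included some of the best separated on the B side. The wider list of wax, cutin and lipid metabolism had 14 higher and 12 lower in B, with a median log2 ratio of 4.45. Its 3 called members were all higher in B. All 6 transcripts of CER1 and LACS, of 6 genes, were higher in B. CER1 makes the alkanes of leaf wax in Arabidopsis, and LACS1 activates the very-long-chain fatty acids that feed it. Glyma.03G101800.1, CER1-like, had 5606 in B against 0 in A, at least 2328-fold higher in B, and was called. Glyma.03G221400.2, LACS1-like, had 6519 in B against 0 in A, at least 2707-fold higher in B, and was called as well. Of the other 4 transcripts of these families, 2 also had no read in A. The 2 with reads in A were the following. Glyma.07G114200.1, CER1-like, had 2285 in B against 49.0 in A, and Glyma.19G218300.2, LACS1-like, had 6035 in B against 227 in A. The third called member of the list, Glyma.20G009100.1, a 3-ketoacyl-CoA thiolase of fatty acid breakdown, had 1861 in B against 0 in A. GDSL lipases, a family that includes cutin synthases, had 4 higher and 2 lower in B, and Glyma.19G250000.1, LTL1, had 10574 in B against 581 in A. On the lower side, Glyma.12G114900.1, WSD1, a wax ester synthase in Arabidopsis, had 34.7 in B against 2162 in A.

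Cell wall transcripts were equally split, 22 higher and 22 lower in B, with a median log2 ratio of 0.08. With an authors' p-value under 0.01, 32% of the 25 left were higher in B. The families described here cover only part of the list and were chosen after values were seen. Among them, the enzymes of pectin were higher in B. The 4 polygalacturonases, which cut the pectin backbone, were all higher in B, from 298 to 19225 normalised reads in that library. Glyma.18G236700.1 had 19225 in B against 304 in A, 63.2-fold higher in B (57.1 to 70.1). The 3 pectin acetylesterases were also higher in B, and Glyma.13G117000.1 had 3363 in B against 0 in A and was called. Expansins, which loosen the wall, were represented by 2 transcripts, both higher in B, and Glyma.12G062700.2 had 1855 in B against 97.9 in A. The enzymes of hemicellulose described here were lower in B. Glyma.09G062600.1, a xyloglucan endotransglucosylase, which cuts and rejoins xyloglucan, had 41.3 in B against 4090 in A, 99.0-fold lower in B (73.6 to 136), and all 3 transcripts of that family were lower in B. Both beta-xylosidases and both mannanases were lower in B too, and Glyma.15G143700.1, BXL1, had 114 in B against 22572 in A, 199-fold lower in B (166 to 240). Inhibitors of polygalacturonase had 2 members higher and 1 lower in B.

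Cell division transcripts formed the list with the largest share higher in B, 30 of 44, with a median log2 ratio of 5.58. The canonical histone H3.2, made mainly while DNA is copied, had 6 transcripts of 6 genes, all higher in B. They had 409 to 1082 in B and 8.83 to 50.6 in A. Glyma.11G130900.1, one of them, had 1082 in B against 24.1 in A, 44.9-fold higher in B (31.3 to 66.9). These genes share nearly the same coding sequence, so the split of reads between these copies is uncertain. The 7 transcripts of mitotic cyclins and B-type cyclin-dependent kinases, which drive entry into mitosis, were also all higher in B, with 127 to 598 in B and 0 to 10.4 in A. Glyma.14G037100.1, a B1-type cyclin, had 598 in B against 10.4 in A, 57.3-fold higher in B (33.3 to 108). None of these 13 transcripts was called. Among transcripts with an authors' p-value under 0.01, 38.9% of the 18 on this list were higher in B. Kinesins, motors that act in division and in transport, had 11 higher and 8 lower in B. Glyma.11G110800.5, of the NACK1 type that acts in cytokinesis in tobacco, had 1182 in B against 0 in A and was called.

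The list of ribosome, translation and pentatricopeptide proteins had 15 higher and 12 lower in B, with a median log2 ratio of 4.30, and by family it was divided. All 4 ribosomal protein transcripts were higher in B, and Glyma.10G048600.2, ribosomal protein L4, had 10631 in B against 0 in A, at least 4415-fold higher in B, and was called. Glyma.19G052400.1, elongation factor 1-alpha, had 2767 in B against 82.7 in A. Chloroplast 20 kDa chaperonin, the cofactor of the chaperonin that folds Rubisco, had 3 transcripts, all higher in B, and Glyma.13G112500.1 had 6350 in B against 404 in A, 15.7-fold higher in B (14.4 to 17.3). The pentatricopeptide proteins, which process organelle RNA, had 2 higher and 9 lower in B. Gibberellin-regulated GASA peptides were on both sides. Glyma.03G131700.1 had 10711 in B against 221 in A, whereas Glyma.17G258200.1, of the snakin type, had 64.8 in B against 13665 in A, 211-fold lower in B (167 to 271).

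**Figure D3:**
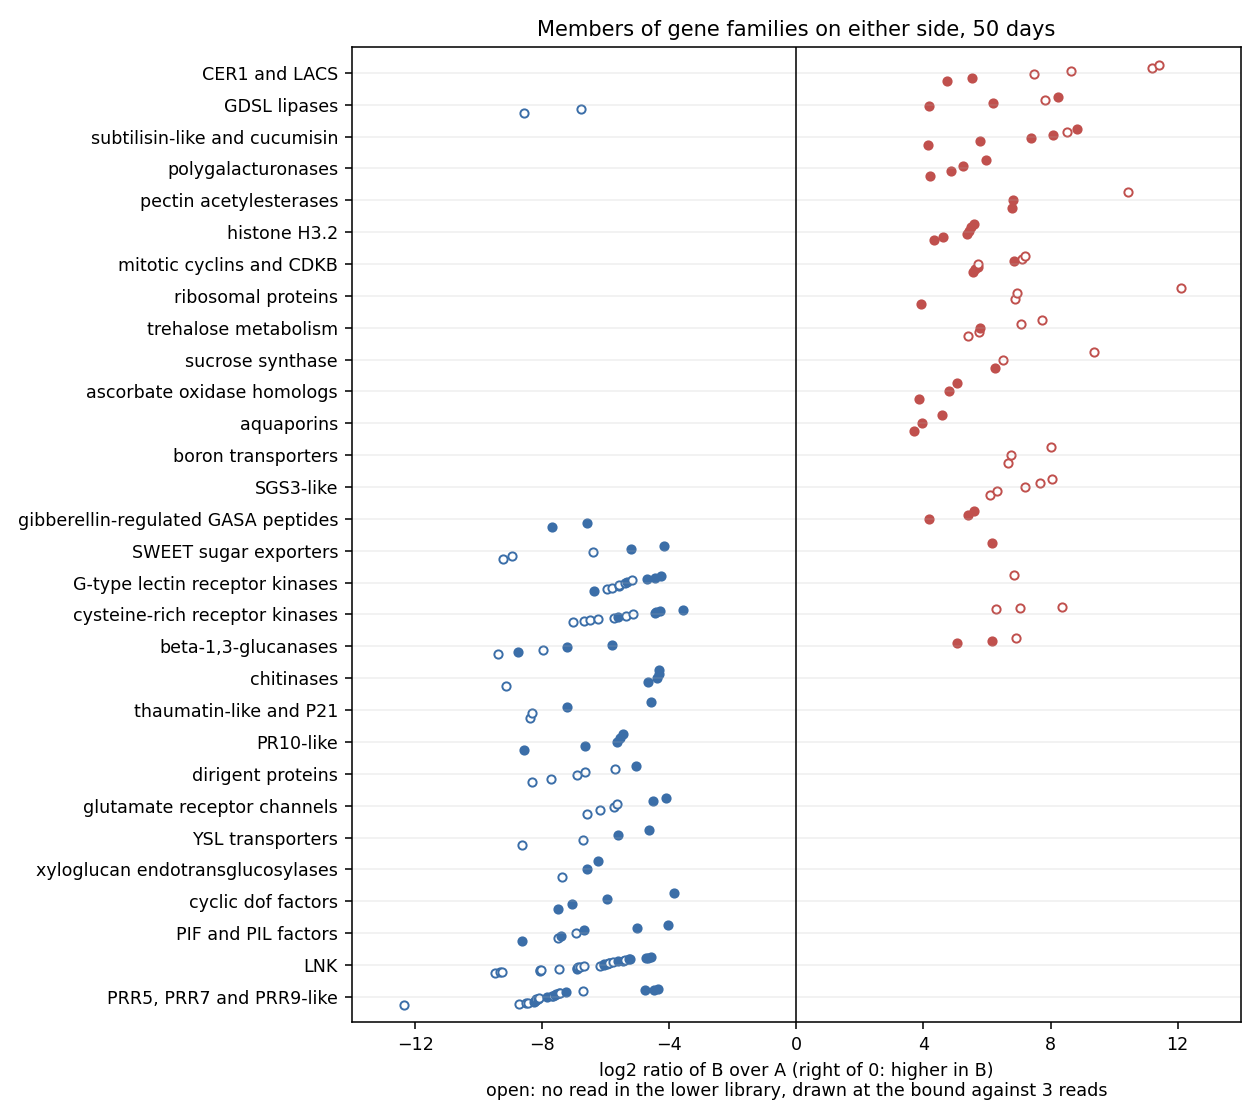
Log2 ratio of B over A for each member of 30 gene families at 50 days, 1 point per transcript, higher in B to the right of 0. Open points had no read in the lower library and are drawn at the bound against 3 reads. The 30 were chosen from 91 families after values were seen and are set in order by side, so their separation follows from that choice. Mixed families such as kinesins (11 higher and 8 lower in B) are not drawn. The upper 14 families hold 2 points left of 0, both GDSL lipases, and the lowest 11 hold none right of 0.

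In sugar metabolism, 4 of 5 large-subunit transcripts of the starch enzyme ADP-glucose pyrophosphorylase were lower in B. They were isoforms of 2 genes, and the remaining 1 of the 3 genes was higher in B. Of the SWEET sugar exporters 5 of 6 transcripts were lower in B, while all transcripts of sucrose synthase and of trehalose metabolism were higher in B. The list had 10 higher and 17 lower in B, close to the share over all transcripts, with a median log2 ratio of -5.79 and 5 of its 6 called members lower in B. ADP-glucose pyrophosphorylase commits glucose to starch, and some of its large-subunit transcripts were among the best separated. Glyma.11G116600.3 had 0 in B against 17797 in A, at least 6318-fold lower in B. A second isoform, Glyma.11G116600.2, had 0 in B against 11725 in A, and the related Glyma.12G042400.2 had 0 in B against 8089 in A. All 3 were called, and the first had an adjusted p of 0.00944 in the authors' deposited table. The SWEET exporters release sugar for phloem loading. Glyma.06G166800.1, SWEET15, had 910 in B against 16253 in A, 17.9-fold lower in B (16.7 to 19.1), and Glyma.08G009900.1, SWEET20, had 0 in B against 1698 in A and was called. Neighbouring Glyma.08G010000.1, SWEET21, had 151 in B against 5655 in A. All 6 polyol and ERD6-like sugar carriers were lower in B. One of them, Glyma.12G044700.1, polyol transporter 5-like, had 0 in B against 2234 in A and was called. On the other side, Glyma.09G073600.3, sucrose synthase, which splits sucrose, had 1590 in B against 0 in A and was called. All 5 transcripts of trehalose metabolism were higher in B, led by Glyma.13G088300.1, a trehalose-phosphate phosphatase, with 510 in B against 0 in A.

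Of 4 transcripts of nitrate reductase, glutamine synthetase and glutamate synthase, 3 were lower in B. Of 33 transcripts of autophagy, nitrogen and amino acids, 9 were higher and 24 lower in B, with a median log2 ratio of -5.32, near that over all transcripts. Glyma.06G109200.1, inducible nitrate reductase, which turns nitrate into nitrite, had 0 in B against 7501 in A, at least 2663-fold lower in B, although it was not called. Glyma.19G130800.3, ferredoxin-dependent glutamate synthase, had 1.88 in B against 12301 in A, a ratio of 6550 with an interval of 1813 to 54090 because it rests on 2 reads in B, and was called. Glyma.11G215500.2, cytosolic glutamine synthetase 1, the form that packages nitrogen for export from ageing leaves, had 79.8 in B against 6022 in A, 75.5-fold lower in B (60.9 to 94.6). Enzymes of stored and transported nitrogen were on both sides. Glyma.15G156900.3, allantoate amidohydrolase, which breaks down the ureides that soybean moves from nodules, had 157 in B against 5389 in A. Glyma.18G061100.3, asparagine synthetase, had 649 in B against 0 in A, and Glyma.03G162100.2, of the autophagy protein ATG9, had 340 in B against 0 in A. The nitrate and peptide transporters of the NRT families had 1 higher and 6 lower in B. Glyma.07G014600.1, the stem 28 kDa glycoprotein, a vegetative storage protein, had 4749 in B against 40.9 in A, 116-fold higher in B (88.1 to 156).

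Photosynthesis and pigment transcripts were few and mostly lower in B, 2 of 15 and 2 of 11 being higher, with median log2 ratios of -7.62 and -5.63 (-6.11 and -5.19 at the bound). The 4 light-harvesting transcripts, of proteins that hold chlorophyll in the antenna, were all lower in B, and Glyma.02G305400.2 had 136 in B against 2451 in A. Glyma.08G175800.1, the photorespiratory enzyme GLO1, had 177 in B against 9871 in A, 55.6-fold lower in B (48.2 to 64.6). Glyma.15G107900.2, the gamma chain of the chloroplast ATP synthase, had 0 in B against 723 in A and was called. For chlorophyllide a oxygenase, which makes chlorophyll b, both listed genes were lower in B. Glyma.14G150600.1 had 0 in B against 4267 in A and was called, and Glyma.13G078400.1 had 132 in B against 8407 in A. Pheophytinase, which strips the tail from chlorophyll during its breakdown, was on both sides, with 1705 in B against 39.3 in A for Glyma.09G226000.5, and 77.0 in B against 1444 in A for Glyma.16G138000.2. As a check of tissue, markers of cell types, matched by words, were counted. The 4 mesophyll markers listed, all light-harvesting transcripts, summed to 197 in B against 5424 in A. Word matches for vascular tissue were an APL-like factor, a PHLOEM PROTEIN 2-LIKE A10-like protein and an uncharacterized protein. These 3 summed to 658 in B against 0 in A. The single guard cell match, a stomatal closure-related actin-binding protein 1-like transcript, had 184 in B against 2.41 in A. Seed, root and flower word matches were 5, 3 and 1 transcripts, on mixed sides. Whether the libraries differed in cell types was not tested, and fewer cells of a type cannot be told apart from less RNA per cell.

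Clock transcripts were mostly lower in B, 63 against 6 higher, with a median log2 ratio of -7.86 (-6.89 with transcripts without a read at their bound). The 69 transcripts came from 33 genes, so isoforms of the same gene weigh on this count. Clock factors act in sequence over the day, but no hour of sampling was used here, and its part in these differences was not tested. The LNK family, coactivators that work with REVEILLE factors at dawn in Arabidopsis, made up 27 of them from 12 genes, all lower in B. Their levels ran from 119 to 13894 in A and from 0 to 280 in B, and 5 were called. Glyma.13G199300.1, LNK2-like, had 280 in B against 13894 in A, 49.7-fold lower in B (44.3 to 55.9). Of a second LNK2-like gene, Glyma.11G154700.3 had 0 in B against 2023 in A, and Glyma.11G154700.6 had 0 in B against 1738 in A, both called. An LNK1-like transcript, Glyma.08G179400.4, had 0 in B against 1832 in A and was called too. The other 2 called LNK1-like transcripts had lower levels. Glyma.08G179400.3 had 0 in B against 746 in A, and Glyma.08G073300.2 had 0 in B against 763 in A. The 22 transcripts of the PRR5, PRR7 and PRR9-like repressors, of 6 genes, and the 5 of LHY, of 3 genes, were all lower in B. Glyma.06G136600.1, PRR95-like, had 0 in B against 14611 in A, at least 5187-fold lower in B, with an adjusted p of 0.00944 in the authors' deposited table. The other called clock transcripts were also lower in B. Glyma.07G049400.14, of a second PRR gene, had 0 in B against 1035 in A, Glyma.19G260900.1, of LHY, had 0 in B against 1065 in A, and Glyma.09G167900.1, REVEILLE 7-like, had 4.69 in B against 3838 in A. The clock transcripts on the other side included Glyma.17G102200.4, of the evening component TOC1, with 1574 in B against 51.4 in A.

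Regulators that read light and day length lay beside the clock. The list of flowering and light signalling had 14 higher and 36 lower in B, with a median log2 ratio of -5.87. All 7 transcripts of PIF and PIL factors, each from its own gene, were lower in B. PIF4 and PIF5 promote growth in shade and senescence in darkness in Arabidopsis. Glyma.02G282100.1, of that kind, had 28.2 in B against 4958 in A, 176-fold lower in B (123 to 261), and Glyma.14G032200.1 had 108 in B against 3543 in A. Cyclic dof factors, which repress CONSTANS until the afternoon, had 4 genes, all lower in B, with 12.2 to 123 in B and 1804 to 4036 in A. The B-box and CONSTANS-LIKE family was divided, 4 higher and 11 lower in B. Glyma.17G066600.1, CONSTANS-LIKE 5-like, had 686 in B against 11293 in A, while Glyma.14G190400.1, CONSTANS-LIKE 9-like, had 4102 in B against 173 in A, 23.7-fold higher in B (20.6 to 27.2). Glyma.13G303700.1, CONSTANS-LIKE 1-like, had 0 in B against 853 in A and was the called member of the light list. Among photoreceptors, Glyma.10G180600.1, cryptochrome 2, had 1868 in B against 134 in A. Glyma.07G181600.2, matched to the floral repressor SVP, had 910 in B against 12.8 in A.

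The wider list of transcription factors had 34 higher and 80 lower in B, with a median log2 ratio of -6.21 (-5.57 at the bound), and its 6 called members were all lower in B. It overlaps the lists above, sharing 20 transcripts with flowering and light and 6 with the clock, and the 88 factors in neither had 29 higher and 59 lower in B. CCCH zinc fingers, many of which bind RNA, had 4 higher and 16 lower in B. Glyma.12G237300.2 had 0 in B against 7166 in A, at least 2544-fold lower in B, and Glyma.09G225600.4 had 0 in B against 3799 in A, both called. Also called were another isoform, Glyma.09G225600.1, with 0 in B against 1685 in A, and Glyma.10G170800.1, ZFN-like, with 0 in B against 1989.8 in A. Outside that family, Glyma.U009200.2, BEL1-like homeodomain protein 1, had 0 in B against 893 in A and was called. NAC and WRKY factors, the families best known for steering senescence, were few. The 3 NAC and 2 WRKY transcripts were all lower in B with at most 262 in A. One was Glyma.13G280000.1, NAC56, with 4.69 in B against 155 in A. Glyma.08G214600.5, of the TOPLESS corepressors, which act for several hormones, had 0 in B against 3928 in A and was called. It, the SMXL6-like and the REF6-like transcripts given below were chosen after their values were seen.

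Hormone lists were small. In ethylene perception and signalling, the 5 transcripts of the receptor, EIN2 and EIN3, of 3 genes, all had no read in B, and none was called. Glyma.20G051500.2, EIN3, had 0 in B against 1908 in A. Jasmonate synthesis was on both sides. Glyma.13G030300.1, a 13-lipoxygenase of the chloroplast, had 613 in B against 8946 in A, 14.6-fold lower in B (13.5 to 15.8), while Glyma.18G280900.1, allene oxide cyclase, had 2586 in B against 134 in A. Auxin transcripts were 3 higher and 11 lower in B, with a median log2 ratio of -7.45 (-5.95 at the bound), and Glyma.01G114000.3, an auxin influx carrier, had 3.76 in B against 1346 in A. The abscisic acid list had 8 on each side. Its counts are those of 13 phosphatases 2C, 7 higher and 6 lower in B, and 3 BURP domain proteins, 1 higher and 2 lower. These were matched by words, so the list is not a measure of the hormone or its synthesis. The called member of the list was Glyma.03G046800.1, a phosphatase 2C, with 1159 in B against 0 in A. Cytokinin receptors of the AHK4 type had 1 transcript higher and 3 lower in B, and Glyma.08G049000.4 had 11.3 in B against 2284 in A. Glyma.02G226900.2, related to SMXL6, a repressor of strigolactone responses, had 0 in B against 1828 in A and was called.

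Defence proteins were lower in B in 27 of 32 transcripts, with a median log2 ratio of -5.74, and none was called. The PR10-like proteins had 5 transcripts of 5 genes, all lower in B, 4 of them from neighbouring genes. Glyma.17G030200.1, stress-induced protein H4, had 111 in B against 5666 in A, 51.1-fold lower in B (42.6 to 61.9). Glyma.05G204600.1, protein P21, an osmotin-like antifungal protein, had 855 in B against 20291 in A, 23.7-fold lower in B (22.2 to 25.4), and the 3 thaumatin-like transcripts of that family were lower in B as well. All 5 chitinases were lower in B, with 0 to 228 in B and 1140 to 4840 in A. Beta-1,3-glucanases, which cut the glucan of fungal walls and of callose, had 3 higher and 5 lower in B. Glyma.11G095100.1 had 14.1 in B against 6498 in A, 461-fold lower in B (280 to 825), and Glyma.11G048700.1 had 816 in B against 10.4 in A. The clearest member on the B side was Glyma.06G294100.2, ACD6-like, whose Arabidopsis relative promotes salicylic acid defence and cell death, with 4061 in B against 2.41 in A, a ratio of 1687 (577 to 8181) that rests on 3 reads in A.

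Of 25 phenylpropanoid and flavonoid transcripts, each from a different gene, 2 were higher and 23 lower in B, with a median log2 ratio of -7.59 (-6.19 at the bound). The 6 dirigent proteins, which guide coupling of lignan precursors, and the 3 isoflavone reductase-like proteins were all lower in B. Glyma.11G070600.1, isoflavone reductase-like, had 29.1 in B against 4792 in A, 165-fold lower in B (116 to 243). Glyma.01G228700.1, chalcone synthase 7, had 73.2 in B against 1312 in A. Glyma.08G220200.3, hydroxycinnamoyltransferase of the lignin pathway, had 0 in B against 738 in A and was the called member. The next flavonoid enzyme stood apart, since Glyma.20G241700.1, chalcone isomerase 2-A, had 820 in B against 24.1 in A, 34.0-fold higher in B (23.7 to 50.8). Cytochromes P450 and glycosyltransferases had 2 higher and 15 lower in B, with a median log2 ratio of -4.79. Glyma.09G186200.1, CYP736A12-like, had 497 in B against 12058 in A. In the terpenoid list, with 4 higher and 5 lower in B, Glyma.17G021800.2, the entry enzyme of the plastid pathway, had 0 in B against 1934 in A and was called, while Glyma.01G215500.1, HMG-CoA synthase of the cytosolic pathway, had 4376 in B against 312 in A. The browning enzyme polyphenol oxidase, Glyma.13G183500.1, had 3539 in B against 0 in A and was called.

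Intracellular immune receptors of the NLR class had 15 higher and 21 lower in B, close to the share over all transcripts, with a median log2 ratio of -4.86. They included some complete differences in both directions. Glyma.06G267400.4, matched to the tobacco virus receptor N, had 3640 in B against 0 in A, at least 1511-fold higher in B, and was called. Also higher in B, Glyma.06G265000.1, TAO1-like, had 4659 in B against 134 in A. Opposite to these, Glyma.16G213700.1, also N-like, had 0 in B against 2149 in A and was called. The other 3 called members were lower in B as well. Glyma.05G165800.2 had 0 in B against 1818 in A, Glyma.03G047700.1, RPP5-like, had 0 in B against 1357 in A, and Glyma.17G179200.3 had 0 in B against 1164 in A. The first of these genes was two-sided, since its isoform Glyma.05G165800.1 had 1441 in B against 0 in A. The 6 RPM1-like transcripts, all with locus numbers from Glyma.18G082700 to Glyma.18G088500, had 1 higher and 5 lower in B. Glyma.18G086600.1 had 198 in B against 2861 in A, while Glyma.18G088500.1 had 264 in B against 0 in A. Such receptors lie in groups of similar copies, so reads shared among copies are uncertain here.

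Receptor-like kinases and receptor proteins formed a large group that was mostly lower in B, 76 of 99 transcripts of 89 genes, with a median log2 ratio of -6.65 (-5.43 at the bound). By family, 11 of 12 G-type lectin kinases, 12 of 15 cysteine-rich kinases and 27 of 37 leucine-rich repeat kinases were lower in B. Glyma.06G258900.1, a G-type lectin kinase, had 33.8 in B against 2898 in A, 85.7-fold lower in B (61.8 to 123). Glyma.11G207000.2, related to CRK2, had 242 in B against 4806 in A. The member with the most reads was Glyma.09G018900.1, a leucine-rich repeat kinase, with 15.02 in B against 9170 in A, 610-fold lower in B (376 to 1068). The largest on the B side was Glyma.08G229100.1, an inactive kinase of the same class, with 1766 in B against 53.0 in A. Of receptor-like proteins without a kinase, 1 was higher and 9 lower in B. The called receptors were Glyma.15G170000.11, an isoform of the kinase ALE2, with 0 in B against 1159 in A, and Glyma.18G195200.1, a receptor-like protein, with 0 in B against 1039 in A. WNK kinases, which in Arabidopsis touch flowering and the clock, had 1 transcript higher and 7 lower in B, and Glyma.18G054100.1, WNK4, had 146 in B against 11381 in A. In the list of protein kinases, phosphatases and calcium signalling, with 20 higher and 33 lower in B, the 3 called transcripts were lower in B. Glyma.12G062900.4, a cytoplasmic kinase of the APK1A type, had 0 in B against 5002 in A, its isoform Glyma.12G062900.3 had 0 in B against 2709.8 in A, and Glyma.11G123500.2, SMG1-like, had 0 in B against 1774 in A.

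Transport proteins had 27 higher and 45 lower in B, near the share over all transcripts, with a median log2 ratio of -4.52. The called transcript with the largest fold or bound was Glyma.08G070800.2, an ABC transporter of the G family, with 0 in B against 29775 in A, at least 10570-fold lower in B. Another ABC transporter, Glyma.16G172600.1, of the C family, had 1661 in B against 0 in A and was called. The other called ABC transporters were lower in B, with 0 in B against 3044 in A for Glyma.10G203000.1 and 0 in B against 2898 in A for Glyma.10G019000.2. Isoforms of mitochondrial phosphate carriers were called in both directions, with 3562 in B against 0 in A for Glyma.19G101100.1 and 0 in B against 872 in A for Glyma.16G050000.3. The latter gene was two-sided, since its isoform Glyma.16G050000.5 had 2822 in B against 105 in A. Its listed isoforms summed to 2822 in B against 978 in A. Glyma.17G057800.3, a calcium pump of the plasma membrane, had 1326 in B against 0 in A and was called. Water and boron transporters were found on the B side. The 3 aquaporins and the 3 boron transporters were all higher in B, and Glyma.08G015300.1, a PIP1 aquaporin, had 2625 in B against 109 in A. Glyma.17G088800.1, boron transporter 2, had 618 in B against 0 in A and was called. The 6 glutamate receptor channels and the 4 YSL carriers of metal-nicotianamine, which move iron out of old leaves in Arabidopsis, were all lower in B. Glyma.20G217400.3, YSL1-like, had 73.2 in B against 1840 in A, and Glyma.11G232600.1, ferritin-3, the iron store of the chloroplast, had 68.5 in B against 1443 in A. Of oxidative stress transcripts, 10 were on each side. Glyma.06G017900.2, catalase, which removes hydrogen peroxide in peroxisomes, had 279 in B against 6851 in A. Glyma.17G163200.1, a secreted peroxidase, had 221 in B against 19685 in A, 89.2-fold lower in B (78.5 to 102). A further peroxidase, Glyma.08G179600.1, had 0 in B against 1031 in A and was called. The 3 homologues of ascorbate oxidase were higher in B, led by Glyma.17G012300.1 with 13227 in B against 902 in A.

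Protein tagging by ubiquitin gave 36 higher and 63 lower in B, with a median log2 ratio of -7.00 (-5.62 at the bound). U-box ligases, which attach ubiquitin, had 2 higher and 10 lower in B, each from a different gene, and F-box proteins had 5 higher and 12 lower. Glyma.14G044500.2, the ubiquitin hydrolase UBP12, had 0 in B against 2761 in A and was called. The ligase UPL4 had called isoforms with 0 in B against 1834 in A for Glyma.10G049100.3 and 0 in B against 939.9 in A for Glyma.10G049100.4. The proteasome subunit PSB7B had them with 0 in B against 1611 in A for Glyma.14G014800.5 and 0 in B against 959 in A for Glyma.14G014800.4. The DCAF1-like gene had called isoforms on both sides. Glyma.04G073900.2 had 0.939 in B against 1938 in A, and Glyma.04G073900.3 had 1966 in B against 0 in A. Also called higher in B was Glyma.19G208600.2, cullin-1-like, the scaffold of F-box ligases, with 1592 in B against 0 in A. The chromatin and Mediator list had 21 higher and 18 lower in B, with a median log2 ratio of 6.61 (5.396 at the bound). SGS3-like proteins, which help to make small RNA in Arabidopsis, had 5 transcripts of 3 genes, all higher in B and all without a read in A. Glyma.06G161700.1, one of these, had 632 in B against 0 in A. The histone demethylase Glyma.06G174000.2, REF6-like, had 0 in B against 1431 in A and was called. Glyma.18G169600.5, of the chromatin protein EAF1, had 2028 in B against 0 in A and was called. The list of RNA splicing and RNA binding had 16 higher and 28 lower in B, with a median log2 ratio of -6.13 (-5.68 at the bound). Its 2 called transcripts were higher in B. Glyma.10G048700.5, CNOT4-like, had 2917 in B against 0 in A, although CNOT4-like transcripts had 2 higher and 4 lower in B. Glyma.09G235900.4, a KH domain protein, had 1281 in B against 0 in A. Glyma.09G084300.4, the microtubule protein AIR9, had 1989 in B against 0 in A, and Glyma.14G022100.3, a subunit of mitochondrial 2-oxoglutarate dehydrogenase, had 0 in B against 1169 in A, both called.

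For a number of genes the libraries differed in which isoform carried the reads. Of 229 genes with more than 1 kept isoform, 97 had isoforms on both sides, 35 had all isoforms higher in B and 97 had all lower in B. Summed over the listed isoforms, B and A were within 2-fold of each other in 61 of the 97 two-sided genes. These sums cover listed isoforms only, and the sources used here do not say how the authors split reads between isoforms that share exons. For phosphoglycolate phosphatase, a photorespiratory enzyme, Glyma.18G244900.2 had 2885 in B against 0 in A, and Glyma.18G244900.3 had 0 in B against 1494 in A. Both were called, in opposite directions. Glyma.15G127400.1, plastid cysteine desulfurase, which supplies sulphur for iron-sulphur clusters, had 2972 in B against 137 in A, against 0 in B against 3572 in A for Glyma.15G127400.3. The Mediator subunit MED12 showed the same exchange, with 1533 in B against 0 in A for Glyma.18G232900.3, and 16.9 in B against 2795 in A for Glyma.18G232900.1. Polyubiquitin was unequal, since Glyma.10G251900.2 had 26130 in B against 669 in A, and Glyma.10G251900.3 had 0 in B against 1686 in A. Dicer-like 4 and SUVR5, a histone methyltransferase, also had isoforms on both sides. Glyma.13G156500.6, Dicer-like 4, had 817 in B against 24.1 in A, and Glyma.13G156500.1 had 58.2 in B against 1051 in A. Of the 98 genes with a called isoform, 17 were two-sided, so a called isoform does not show the direction of its whole gene. Those named above by a called isoform alone include aminopeptidase M1, the chloroplast processing peptidase, the ZFN-like zinc finger and ALE2. The receptor-like protein Glyma.18G195200 and the CNOT4-like gene were also two-sided.

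**Figure D4:**
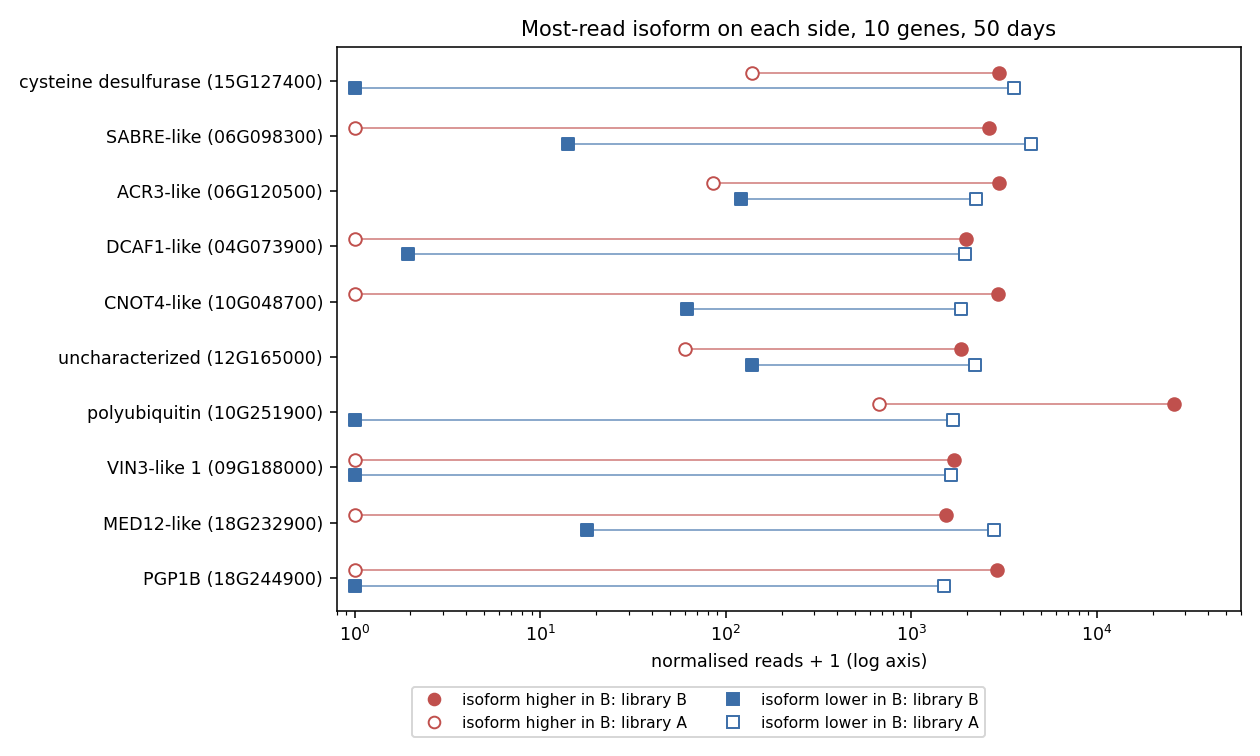
Normalised reads plus 1 (log axis) of the most-read isoform on each side for 10 genes, filled symbols for library B and open symbols for library A, with a line joining the values of 1 isoform. In every gene drawn the filled circle lies right of the open circle and the filled square left of the open square, from 1494 to 26130 normalised reads in the higher library.

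Position and kinship among members were also described. There were 48 Arabidopsis genes matched by 3 or more soybean genes. For 25 of them all those genes were lower in B, for 5 all were higher in B and 18 were mixed. Over all 1868 genes 57.2% had only lower and 37.6% only higher isoforms in B. Those are shares of single genes, which cannot be set directly against the counts of whole groups. The 5 on the B side were histone H3.2, CER1, a mitotic cyclin, a boron transporter and SGS3. By chromosome, as locus names give it, the share of transcripts higher in B ran from 24.8% on chromosome 11 (28 of 113) to 47.8% on chromosome 18 (54 of 113). There were 11 runs of 4 or more listed genes with locus numbers at most 5 steps apart, holding 47 genes, and 4 of these runs lay on 1 side. They were the PR10-like genes of Glyma.17G030100 to Glyma.17G030400 and the leucine-rich repeat kinases of Glyma.08G198500 to Glyma.08G199400, both lower in B, a run of 4 differently described genes on chromosome 9 that was lower in B, and a run of 4 on chromosome 6 that was higher in B.

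Of the 2161 transcripts, 730 (33.8%) were also listed in the authors' comparison at 95 days, whose table holds 2471. At that age 52.9% of transcripts with 100 or more were higher in B and 47.1% lower. In 496 the same column was higher at both ages and in 234 the other one was. It is not stated that B at 50 days and B at 95 days are the same type, so these counts describe columns. Both-age transcripts higher in B at 50 days were higher in B again in 195 cases and lower in 73, and those lower in B at 50 days were lower again in 301 and higher in 161. No read was found in A at either age for 136 transcripts, and none in B at either age for 198. The library without a read was one column at 50 days and the other at 95 days for 171.

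Gene groups differed in how they were spread over these counts. Of 17 defence transcripts listed at both ages, 16 were lower in B at both and 1 was higher in B at both. Glyma.06G123700.2, a pathogen-related protein, had 43.2 in B against 9937 in A at 50 days, and 736 in B against 10106 in A at 95 days. NLR receptors kept their column in 23 of 26, and the 6 RPM1-like ones in all 6. In contrast, 11 of the 12 PRR5, PRR7 and PRR9-like transcripts listed at both ages were lower in B at 50 days and higher in B at 95 days. Glyma.07G049400.16 of that family had 74.2 in B against 11597 in A at 50 days, and 2585 in B against 132 in A at 95 days. Over the whole clock list, 23 transcripts were listed at both ages. Of these, 14 were lower in B at 50 days and higher in B at 95 days, 4 were the reverse and 5 were lower in B at both. Which of these group differences exceed chance was not tested, and isoforms of 1 gene are counted separately in them.

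**Figure D5:**
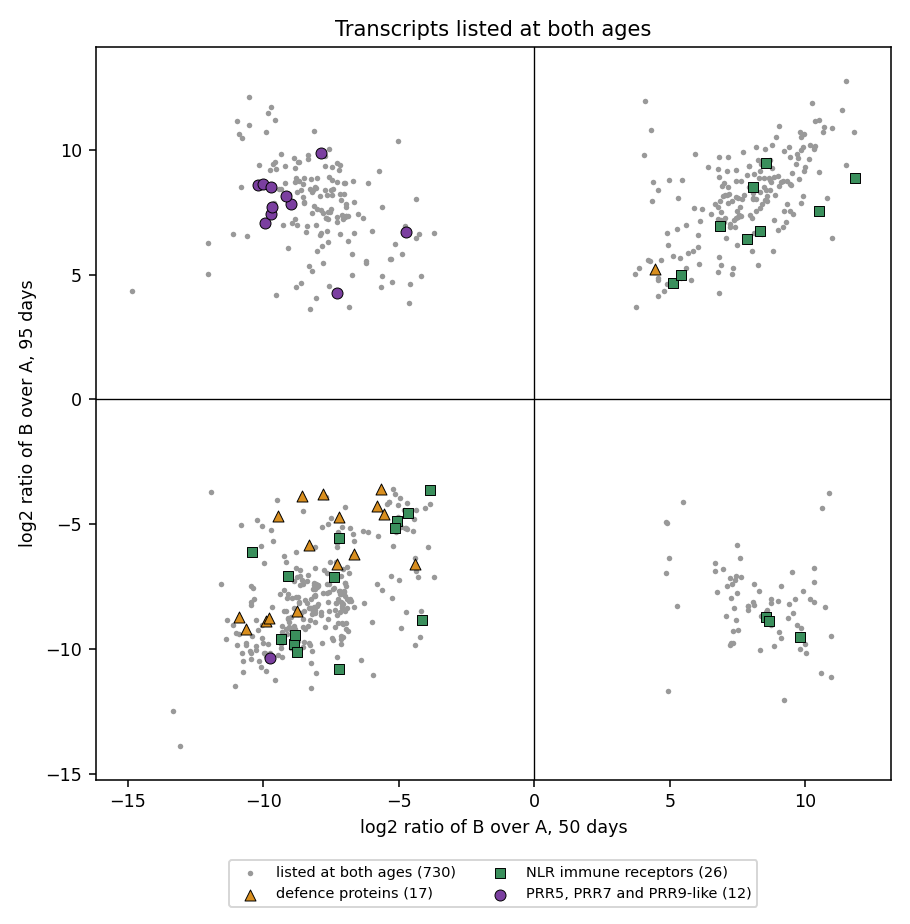
Log2 ratio of B over A at 50 days (horizontal) and at 95 days (vertical) for the 730 transcripts listed at both ages, with defence proteins, NLR receptors and the PRR family marked. All 17 defence transcripts lie where the ratios at both ages have the same sign, and 11 of 12 PRR transcripts where the ratio is negative at 50 days and positive at 95 days.

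Some transcripts with high levels at both ages kept their column and others did not. Glyma.04G180400.1, the BURP protein, had 7.51 in B against 73517 in A at 50 days, and 5.47 in B against 99043 in A at 95 days. RD21B-like Glyma.14G085600.1 had 23619 in B against 259 in A at 50 days, and 54533 in B against 314 in A at 95 days. Ervatamin-B-like Glyma.07G205400.1 had 4.38 in B against 6134 in A at 95 days. With the other column higher, Glyma.09G231900.1, an inhibitor-domain protein of the invertase and pectin methylesterase class, had 100 in B against 10672 in A at 50 days, and 54226 in B against 957 in A at 95 days. Glyma.11G215500.2, the glutamine synthetase described above, had 2954 in B against 62.3 in A at 95 days. Of the isoforms of two-sided genes, 40 kept their column at 95 days and 30 did not. For 16 of these genes both sides were listed again. In 7 every isoform kept its column, in 5 every isoform changed it and 4 were mixed. SABRE-like Glyma.06G098300.4 had 2609 in B against 0 in A at 50 days, and 3087 in B against 0 in A at 95 days, and its partner Glyma.06G098300.1 had 13.1 in B against 4406 in A at 50 days, and 5.47 in B against 5857 in A at 95 days. MED12 isoform Glyma.18G232900.3 was of the other kind, with 0 in B against 1983 in A at 95 days.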

How the data were processed

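RNA from soybean leaves was sequenced on an Illumina NovaSeq instrument, per the labels' protocols. The deposited values are a signal per transcript, reads scaled by the authors to library size with 1 added, with 1 column per library at each age. The authors' deposited log2 ratios equal B over A of those values, and their deposited p-values and adjusted p-values come from 1 library against 1. Trimmomatic 0.36 and DESeq 1.36.0 are named per the submitters' processing notes, while for the aligner, counter, genome build and gene models the sources used here give no name.

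Of 2414 rows at 50 days, 1 repeated another, and 252 of the 2413 transcripts left were below 100 in the higher library. Subtracting 1 left values that were whole multiples of 0.939 in B and 0.803 in A (size factors 1.06 and 1.25), which gave the reads behind intervals and bounds. Since reads are not separate molecules, these cover counting error only. No count test of the listed transcripts was run, because each column holds 1 library. Sides, ratios and counts were computed with Python 3.11.15 and pandas 2.3.3, intervals with scipy 1.17.1, and the steps were tested on simulated data.

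Members, the 32 lists and the 91 families were chosen with earlier results of these data known. List wording was corrected after descriptions and values were seen, and families were chosen after values were seen. A rule on level, calls, lists, isoforms and both ages took 560 transcripts as those that may be named. The text names each of the 80 called ones among them, and it names others of them chosen after values were seen. Alternatives were no minimum level and a minimum of 500, 1 transcript per gene, 3 or fewer reads taken as none, an authors' p under 0.01, adjusted p limits of 0.1 and 0.01, a pseudocount of 10, centring on the median and the lists as first worded.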

Additional observations from a re-analysis of the deposited data

Results flagged for a closer look

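The 10 transcripts given here were higher in a different column at 95 days than at 50 days. Other transcripts named above changed column too, among them Glyma.07G049400.14, Glyma.18G244900.3, Glyma.04G053300.1 and both named MED12 isoforms. No test of the difference between ages was made, each column and age had 1 library, and the columns are not stated to hold the same type at both ages. The ratios at 95 days that follow are log2 values of B over A of the authors' deposited table.

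Lower in B at 50 days and higher in B at 95 days were Glyma.09G231900.1, the inhibitor-domain protein (5.82), Glyma.05G145000.1, an ABC transporter of the C family (4.49), and Glyma.01G002000.1, matched to MARD1 (4.63). So were Glyma.08G070800.2, the ABC transporter of the G family (4.34), Glyma.11G215500.2, glutamine synthetase 1 (5.55), and Glyma.07G049400.16, of the PRR family (4.28). Uncharacterized Glyma.07G262000.3 (6.21) and Glyma.13G277000.1 (11.17) were also in this direction. Glyma.13G277000.1 had 0 normalised reads in B against 1991 in A at 50 days, and 2308 in B against 0 in A at 95 days.

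Higher in B at 50 days and lower in B at 95 days were Glyma.04G073900.3, a DCAF1-like isoform (-11.11), and Glyma.18G280500.1, CROWDED NUCLEI 1 (-3.74). Glyma.04G073900.3 had 1966 in B against 0 in A at 50 days, and 0 in B against 2213 in A at 95 days.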

How the results depend on the processing

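No paired analysis was possible because each column and age holds 1 library, and no replicate could be left out. Without a minimum level, with 1 transcript per gene or with 3 or fewer reads taken as none, every count stayed within 1.5 times its value where it was run. With a minimum level of 500 the transcripts higher and lower in B numbered 372 and 612, those without a read in A 179, those without one in B 259, genes with isoforms on both sides 45, and transcripts listed at both ages 249 with the same and 99 with the other column higher. With an authors' p under 0.01 there were 345 higher and 617 lower in B. The called counts higher and lower in B were 66 and 148 at an authors' adjusted p under 0.1, and 0 and 3 at 0.01, where 345 and 617 transcripts of the authors' DESeq table had an unadjusted p under 0.01. These counts are smaller or larger because the limit admits fewer or more transcripts. The 706 transcripts with reads in both libraries had a median log2 ratio of -4.31, and centring on it gave 951 higher and 1210 lower in B. A pseudocount of 10, which cannot change a side, made 20 called log2 ratios smaller in size by 0.749 to 3.32. Of 160 alternatives to list shares 12 moved, and the cause was not tested. Lists of wax and lipid metabolism and of ribosome and translation had 78.6% and 77.8% higher in B at the minimum of 500. At a p under 0.01, 38.9% of cell division, 32% of cell wall and 59.1% of RNA splicing and binding transcripts were higher in B. Over all kept transcripts of these lists the shares were 68.2%, 50% and 36.4%. Depth is not known, so small differences could not be seen.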

Other observations

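Several called transcripts outside the lists were isoforms of the same gene on the same side, and those given here were chosen after their values were seen. Glyma.11G033600.7, described as mucin-17, had 0 normalised reads in B against 10319 in A, at least 3663-fold lower in B. Its isoform Glyma.11G033600.6 had 0 in B against 1238 in A. An uncharacterized gene had called isoforms with no read in B, among them Glyma.19G012300.8 with 0 in B against 1756 in A and Glyma.19G012300.9 with 0 in B against 1723 in A. Such isoforms share exons, so they are not separate evidence.

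One-carbon metabolism, which moves methyl and methylene groups between amino acids, was on both sides. Glyma.19G114500.2, methionine synthase, which makes methionine from homocysteine, had 5672 in B against 4.01 in A, 1413-fold higher in B (605 to 4354), and was called. Glyma.13G222300.4, serine hydroxymethyltransferase, had 0 in B against 2032 in A, at least 721-fold lower in B, and was called.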
